A study of Mus musculus with 2 samples.

Results

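White adipose tissue grows when fibroblast-like cells of its stroma become fat cells. In the stroma of subcutaneous fat, interstitial progenitors, known for Dpp4, Pi16 and Cd55, lie upstream of committed preadipocytes, which carry Icam1, begin to express Pparg, the master transcription factor of fat cell formation, and take up the genes of lipid handling. Committed preadipocytes also lay down basement membrane, the sheet of type IV collagen and laminin that surrounds each fat cell.

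Committed preadipocytes of adult mice were examined here, taken as adult stromal cells that are low in progenitor genes. A cell was a member when Col1a1, Col1a2, Col3a1 and Dcn together made up at least 1% of its unique molecular identifiers (UMIs, the counted RNA molecules), when it held at most 1 UMI of Ptprc, the leukocyte antigen CD45, and when Pi16, Dpp4, Anxa3, Sema3c, Wnt2 and Cd55 together made up less than 0.1%. Members were thus chosen by measured values of these 11 genes. The rule found 857 of the 5429 adult cells, which is 15.8% (95% exact binomial interval 14.8 to 16.8) and 62.2% of the 1378 adult stromal cells. The whole data set held 9344 cells.

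The cells came from the stromal vascular fraction of inguinal subcutaneous white fat of wild type, male C57BL/6J mice, digested with collagenase and sorted for live cells. There was 1 adult library (8 weeks of age) and 1 adolescent library (2 weeks of age), each from several pooled mice. Neither age was replicated, so no test between ages or cell sets could be made, and age cannot be told apart from library. All intervals given are 95% intervals that cover counting error only, and levels are counts per 1000000 UMIs (CPM), summed over a set of cells.

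Members held 7638395 UMIs in all, with a median of 9127 UMIs and 2724 genes per cell. Set beside them were 521 adult stromal cells with progenitor genes at or above 0.1% (progenitor-marker-high stroma, median 6366 UMIs), 3926 adult immune cells (median 3442 UMIs) and 531 adolescent cells chosen by the same rule (median 9293 UMIs), which were 33.1% (30.8 to 35.5) of the adolescent stroma. The libraries shared 22 cell barcodes, 5 of them among the members. The doublet caller Scrublet marked 9 members (1.05%).

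Of the genes of the rule, Col3a1 stood at 18908 CPM, Dcn at 12490 CPM, Col1a2 at 8809 CPM and Col1a1 at 7493 CPM in members, and Ptprc at 17.0 CPM. Pi16 stood at 66.4 CPM against 4372 CPM in progenitor-marker-high stroma, Anxa3 at 51.8 against 1457 CPM, Cd55 at 56.6 against 343 CPM, Sema3c at 17.9 against 418 CPM, Dpp4 at 9.95 against 345 CPM and Wnt2 at 8.38 against 157 CPM. These values chose the cells and are a description.

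Few cells lay close to the progenitor threshold, but it did not fall in a gap. Only 19 adult stromal cells had a progenitor share from 0.08% to 0.1%, and 12 had one from 0.1% to 0.12%. In wider steps, 78 members held 0.05% to 0.1%. Outside, 36 cells held 0.1% to 0.2% and 131 held 0.2% to 0.5%. The nearest cell inside was at 0.0987% and the nearest outside at 0.1006%. No progenitor UMI at all was found in 193 members (22.5%).

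The label was checked against markers. All 9 genes of a general stromal list were detected, with a summed level of 10496 CPM, beside 8123 CPM in progenitor-marker-high stroma. Of these genes 3 were at least 2-fold higher in members, 2 lower and 4 between, where 5.98% of all genes were higher and 7.41% lower. Pdgfra, the receptor that marks adipose stroma, stood at 273 CPM against 179 CPM in progenitor-marker-high stroma, within 2-fold. Cd34 of the same list went the other way, at 399 against 973 CPM. Genes of finished fat cells were mixed. The 13 genes of the mature adipocyte list summed to 225 CPM in members, 61.0 CPM in progenitor-marker-high stroma and 115.5 CPM in immune cells, and the most abundant was Car3, a carbonic anhydrase of fat cells, at 158.5 CPM. Adipoq, the hormone adiponectin, was at 1.44 CPM and Plin1, a lipid droplet coat protein, at 3.14 CPM. Lep, the hormone leptin, had 0 UMIs, which allows up to 0.393 CPM.

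Immune RNA in members was a low share of its level in immune cells. The 8 lists of immune markers reached 4.69% (pan-immune) to 8.91% (neutrophil) of their summed level in adult immune cells, with 6.37% for macrophages, 5.32% for B cells, 6.22% for T cells, 4.97% for natural killer cells, 5.004% for antigen presentation and 5.05% for mast cells. The most abundant immune transcript was Cd74, the class II invariant chain, at 826 CPM. Endothelial markers summed to 52.5 CPM, led by Tek at 37.0 CPM, and mural markers to 50.8 CPM, led by Abcc9 at 30.2 CPM. In progenitor-marker-high stroma the endothelial markers summed to 157.5 CPM and the mural markers to 22.5 CPM. No marker of these immune, endothelial and mural lists was at 0 UMIs in members, and the part of such RNA in the results was not tested.

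Of the 5 genes used as markers, Lpl (lipoprotein lipase, which frees fatty acids from circulating lipoproteins) lies on chromosome 8 at 68880491 to 68907448 of GRCm38, plus strand. Fabp4, a carrier of fatty acids inside the cell, lies on chromosome 3 at 10204088 to 10208576, minus strand. Col4a1, a chain of type IV collagen, lies on chromosome 8 at 11198423 to 11312826, minus strand, head to head with its partner chain Col4a2 (11312805 to 11449287, plus strand). Icam1, an adhesion receptor for leukocytes, lies on chromosome 9 at 21015985 to 21028817, plus strand, and Cxcl14, a chemokine, on chromosome 13 at 56288643 to 56296551, minus strand. All are protein-coding, and UMIs were counted over whole genes, so no value below belongs to a single exon or UTR.

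The 250 bases before the RefSeq start of Icam1 and of Cxcl14 are printed as the regulatory sequence next to the adhesion gene by which members are divided below and the marker that differed most between ages. Both are from RefSeq on GRCm38.p6, Icam1 from chr9:21015690-21015939 (plus strand) and Cxcl14 from chr13:56296552-56296801 (minus strand), and capitals mark matches to 4 searched motifs.
Icam1: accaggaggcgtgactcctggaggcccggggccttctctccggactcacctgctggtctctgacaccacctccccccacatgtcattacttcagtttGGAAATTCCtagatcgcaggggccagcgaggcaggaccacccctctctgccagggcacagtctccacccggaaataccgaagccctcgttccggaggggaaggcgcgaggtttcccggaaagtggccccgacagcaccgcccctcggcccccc
Cxcl14: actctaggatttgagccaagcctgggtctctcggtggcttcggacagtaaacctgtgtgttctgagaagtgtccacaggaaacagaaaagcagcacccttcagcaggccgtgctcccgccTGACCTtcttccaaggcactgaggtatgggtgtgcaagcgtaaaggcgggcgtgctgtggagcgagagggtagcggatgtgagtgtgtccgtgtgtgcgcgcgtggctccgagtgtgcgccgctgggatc

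The motifs, searched on both strands, were GGAAATTCC (a form of the kappa B element), AGGTCA (the core element of nuclear receptors), TTGCNNAA (C/EBP) and TATAAA (the TATA box). The kappa B form was found 153 bases before the Icam1 start and in 0.286% of all 32851 promoter windows of this length. The nuclear receptor core was found on the opposite strand 130 bases before the Cxcl14 start and in 14.02% of all windows. Of the 15 genes of the committed preadipocyte list, 11 had a window in the table, and 3 of them (Cd36, Cxcl14 and Pparg) held AGGTCA, 1 (Icam1) the kappa B form, 1 (Pparg) TTGCNNAA, which 9.56% of all windows held, and 3 (Apoe, Cebpa and Pparg) TATAAA, which 12.4% held. A match describes letters in the window and not a bound site.

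The 5 markers were all far above progenitor-marker-high stroma. Lpl stood at 3119 CPM (3079 to 3159) in members and 403 CPM (382 to 425) in progenitor-marker-high stroma, a 7.74-fold difference (7.33 to 8.17). Fabp4 stood at 3278 CPM against 218.5 CPM, 15-fold (13.95 to 16.1). Col4a1 stood at 1902 CPM against 184.5 CPM, 10.3-fold (9.52 to 11.2). Cxcl14 stood at 718 CPM against 46.9 CPM, 15.3-fold (13.1 to 17.99), and Icam1 at 336 CPM against 49.5 CPM, 6.78-fold (5.81 to 7.96). For each marker the intervals of the 2 levels lay apart. The size depended on where the progenitor limit was set. With a limit of 0.05%, which moved 78 members to the high stroma, the log2 ratio was 2.31 for Col4a1 (3.36 at 0.1%), 3.005 for Cxcl14 (3.93), 1.90 for Icam1 (2.75) and 2.27 for Lpl (2.95), while Fabp4 was at 3.34. The gap belongs to the contrast by which members were selected and is a description.

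The immune cells separated the markers. Col4a1 and Cxcl14 were at 36.0 and 13.9 CPM in immune cells, Lpl at 246 CPM and Fabp4 at 294 CPM. Icam1 was at 149 CPM there, so its level in members was 2.25 times that in immune cells, the smallest difference of the 5 markers in this comparison.

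**Figure D1:**
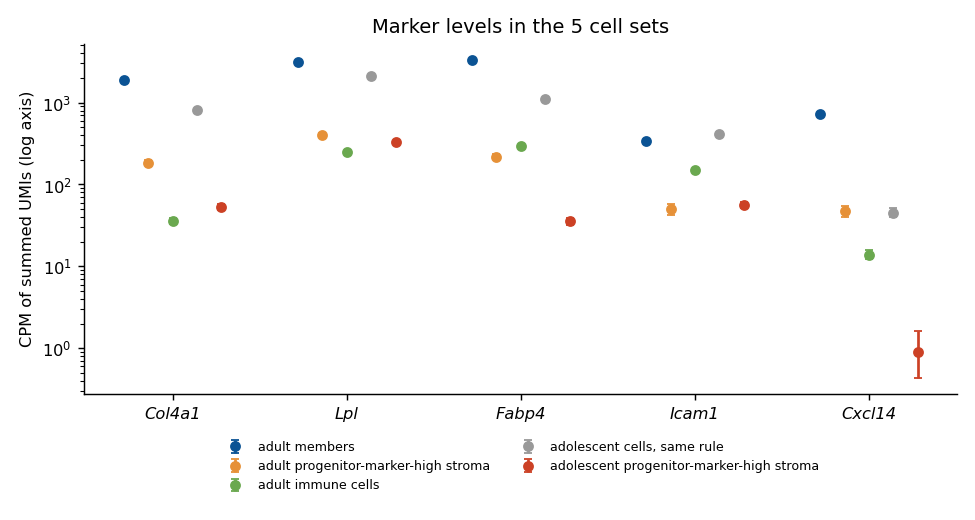
Levels of the 5 markers (CPM of summed UMIs, log axis) in 5 cell sets, with 95% Poisson intervals. Members lie above adult progenitor-marker-high stroma and immune cells for each marker, and Cxcl14 is the marker with the widest gap between the ages (718 CPM in members, 45.5 CPM in adolescent cells of the same rule).

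To compare detection at equal depth, every cell was thinned to 2000 UMIs, which left out 16 members. Lpl was seen in 96.4% of members (94.95 to 97.6), 45.6% of progenitor-marker-high stroma, 12.3% of adult B-cell-like, 9.05% of T-cell-like and 47.8% of macrophage-like cells. Col4a1 was seen in 93.6% (91.7 to 95.1), 22.3% of progenitor-marker-high stroma and 7.56% of B-cell-like cells. Fabp4 was seen in 79.8% (76.9 to 82.4) of members, 28.3% of progenitor-marker-high stroma (24.4 to 32.5) and 29.1% of B-cell-like cells (26.2 to 32.2), so the share in the high stroma is not read as expression. Cxcl14 was seen in 46.0% (42.6 to 49.4), 3.85% of progenitor-marker-high stroma and 3.56% of B-cell-like cells, although its level was 46.9 CPM in the high stroma and 15.9 CPM in B-cell-like cells. Without thinning the shares in members were 98.7% for Lpl, 99.4% for Col4a1, 92.5% for Fabp4 and 67.6% for Cxcl14, at a median depth of 9127 UMIs against 2544 UMIs in B-cell-like cells.

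The markers were lower in adult stroma with a high progenitor share than in stroma with none, though not at every step. Members were chosen by this share, so the gradient is a description. Col4a1 stood at 1945 CPM in the 193 members with no progenitor UMI, at 1938 CPM in the 586 members up to 0.05% and at 1500 CPM in the 78 members from 0.05% to 0.1%, then at 772, 234 and 95.7 CPM in the 36, 131 and 354 non-members of rising share. Lpl went from 3316 through 3186 and 2100 CPM in members to 1129, 416 and 312 CPM outside. Fabp4 dropped earlier, from 3988 and 3356 CPM to 1015 CPM (938 to 1096) already inside the membership threshold, then stood at 653.5, 161 (136 to 189) and 190.5 CPM (173 to 209) outside it. Cxcl14 stood at 751, 753 and 345 CPM in members and at 252.5, 59.0 and 17.9 CPM outside. Icam1 kept 361, 332 and 311 CPM over the 3 groups of members, with overlapping intervals, and stood at 108 CPM (72.1 to 155) in the next group outside.

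Cd34 and Fbn1 rose along the same axis, which is likewise a description. Cd34, a surface sialomucin of stromal progenitors, went from 340.5 CPM in members with no progenitor UMI to 1042 CPM at the highest progenitor share, and Fbn1, the microfibril protein fibrillin, from 233 to 1314 CPM. Both stood higher in the 78 members nearest to the threshold (538 CPM each) than in the other members. Median depth was 7818 UMIs in the lowest group, 9086 in the members nearest to the threshold and 6187 at the highest share.

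**Figure D2:**
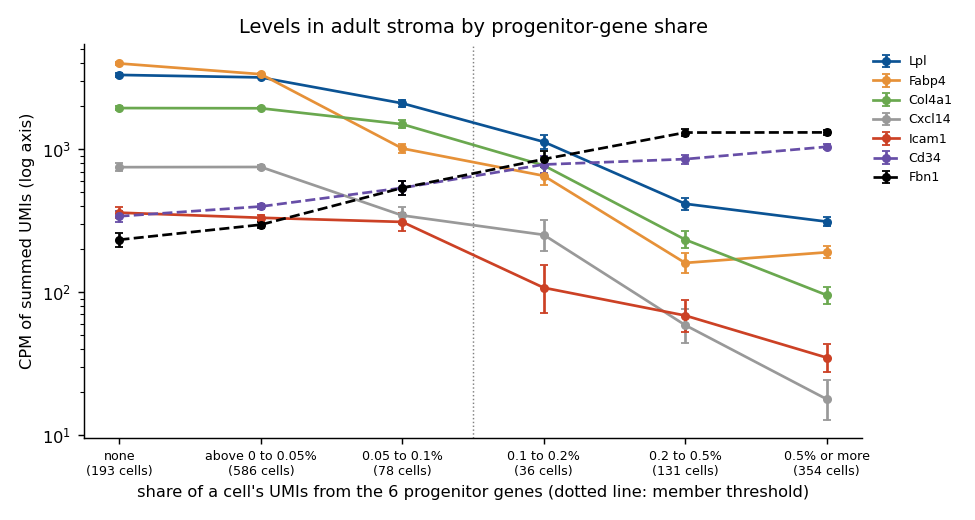
Levels (CPM of summed UMIs, log axis, 95% Poisson intervals) of 5 markers and of Cd34 and Fbn1 in adult stromal cells grouped by the share of their UMIs from the 6 progenitor genes of the rule. Fabp4 falls to 1015 CPM inside the member threshold (dotted line), while Icam1 stays at 311 CPM up to it.

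Against immune cells, 1485 of 6352 genes with at least 20 CPM in either set (23.4%) were at least 2-fold higher in members and 1251 (19.7%) at least 2-fold lower, leaving out the 11 genes of the rule. The 15 highest were led by Plac9b, a small secreted protein gene, at 97.3 CPM in members and 0.452 CPM in immune cells. The next was Ccl19, the chemokine that draws Ccr7-bearing cells, with 498 UMIs in members and 7 in immune cells, whose summed UMIs were 17704273. Ccl19 has a pair of copies under its name in the files and only 1 of them held UMIs, so its count is uncertain.

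Homeobox factors that record body position were among them. En1, Hoxc10 and Hoxc8 stood at 35.0, 82.0 and 68.9 CPM in members and at 0.226, 0.847 and 1.02 CPM in immune cells. Fst, the activin-binding protein follistatin, was at 707 CPM against 7.79 CPM, 90.7-fold (76.6 to 108). Sfrp1, a secreted Wnt antagonist, was at 30.4 CPM against 0.282 CPM, and Mmp14, a membrane collagenase, at 286 CPM against 4.46 CPM. Cox8b, a subunit of cytochrome c oxidase best known from muscle and brown fat, was at 125 CPM against 1.64 CPM, 76.6-fold (53.0 to 115). The others were Gm9780, Ldb2, Alkal2, Gm2564, Bicc1 and Thsd7a, at 21.6 to 134 CPM in members.

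Genes below 20 CPM in 1 of 2 sets entered a comparison only through the set where they were higher, so the counts of genes per list are descriptions. The committed preadipocyte list had 15 genes, chosen with earlier results of these data known. All 14 that could be compared with progenitor-marker-high stroma were at least 2-fold higher in members, where 5.98% of 5683 genes were higher and 7.41% lower. Their median log2 ratio was 3.11, beside 0.03 over all genes. Pparg stood at 65.2 CPM (59.6 to 71.2) against 6.91 CPM (4.43 to 10.3), 9.43-fold (6.27 to 14.9). Cebpa, its partner factor, was at 58.4 against 17.3 CPM, and Cd36, a fatty acid transporter, at 251 against 29.1 CPM. Sparcl1, a matricellular protein, and Col15a1, a collagen at the edge of basement membranes, were at 718 and 717 CPM against 46.6 and 46.1 CPM. The smallest log2 ratio of the 14 was 1.74, for Cebpa. This contrast follows from the rule, so nothing is read from these counts.

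Of 17 interstitial progenitor genes outside the rule, none was 2-fold higher in members and 15 were at least 2-fold lower, with a median log2 ratio of -2.20. Bmp7, a bone morphogenetic protein, was at 1.44 CPM against 73.4 CPM, and Smpd3, a sphingomyelinase, at 10.7 against 408 CPM. Mfap5, a microfibril protein, stood at 707.5 against 3254 CPM. Ly6a, the antigen Sca-1, and Igfbp5, an IGF-binding protein, missed the 2-fold mark at log2 ratios of -0.57 and -0.60. Members held 2732 CPM of Ly6a and 399 CPM of Cd34.

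Lipid genes were not raised as a block. Of 15 compared, 8 were at least 2-fold higher, 2 lower and 5 between. Besides Lpl, Fabp4 and Cd36, the higher genes included G0s2, an inhibitor of triglyceride breakdown, at 244 against 34.0 CPM, Plin2, a coat protein of small lipid droplets, at 358 against 71.1 CPM, Fabp5 at 54.6 against 11.2 CPM, and Agpat2, an enzyme of triglyceride assembly, at 33.8 against 10.9 CPM. The lower ones were Mgll, which splits monoacylglycerol, at 16.5 against 122 CPM, and Scd1, a fatty acid desaturase, at 16.5 against 42.0 CPM. Fasn, fatty acid synthase, had a log2 ratio of 0.26, and Dgat1, Dgat2 and Gpam, of triglyceride synthesis, were below 20 CPM in both sets.

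Of 11 adipogenic transcription factors compared, Pparg, Cebpa and Nr1h3, the sterol sensor LXR alpha (43.2 against 13.8 CPM), were at least 2-fold higher and the other 8 were between, with a median log2 ratio of -0.01 over the 11. Cebpb and Cebpd had log2 ratios of -0.08 and -0.28, and Ebf2 of -0.72. Of 7 anti-adipogenic regulators compared, Wnt10b (1.44 against 40.9 CPM) and Klf3 (74.9 against 150 CPM) were at least 2-fold lower and Nr2f2, the orphan receptor COUP-TFII, at least 2-fold higher (37.3 against 8.35 CPM).

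The basement membrane list parted by chain. Of 16 genes compared, 7 were higher: Col4a1, Col4a2 (836 against 95.3 CPM), Col4a3, Col15a1, Col18a1 (110 against 28.8 CPM), Nid2 (76.3 against 26.2 CPM) and Hspg2, the proteoglycan perlecan (473 against 178 CPM). Lamb2, a laminin chain, was lower at 108 against 261 CPM. The other laminin chains Lama2, Lama4, Lamb1 and Lamc1 stayed within 2-fold, with log2 ratios from -0.41 to 0.75, and Nid1 was at -0.84. Summed over all 19 genes the list was at 20321 CPM in members and 21391 CPM in progenitor-marker-high stroma, most of it from Sparc at 14335 and 18270 CPM.

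The interstitial matrix moved in both directions, with 6 of 23 genes higher and 8 lower. Col5a3 (963 against 224 CPM), Col6a3 (1670 against 518 CPM), Col6a2 (1563 against 646 CPM), Lum (2052 against 565 CPM), Lox (268 against 84.9 CPM) and Pcolce (2290 against 1057 CPM) were higher. Fn1, fibronectin, was lower at 232 against 2691 CPM, and so was Col14a1 at 46.7 against 462 CPM, with Postn, Mfap4, Mfap5, Fbn1, Col16a1 and Loxl1. Ctsk, a collagen-degrading cathepsin, was higher at 983 against 336 CPM, as was Mmp3, stromelysin, at 1166 against 248 CPM, while Mmp2 was nearly level at 1041 against 1062 CPM.

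Secreted signals also divided. Among growth factors and their binding proteins, 6 of 14 were higher and 4 lower. Igfbp7 stood at 3032 against 452 CPM, Fgf10 at 62.3 against 8.06 CPM, Mdk at 93.6 against 11.2 CPM, Angptl1 at 56.8 against 8.93 CPM, Igf1 at 281 against 130 CPM and Vegfa at 82.2 against 39.7 CPM. Igfbp6 (1672 against 5122 CPM) and Igfbp4 (455.5 against 1498 CPM) were lower. Of 11 Wnt pathway genes, the secreted antagonists Sfrp2 (80.0 against 1152 CPM) and Sfrp4 (7.20 against 355 CPM) and the ligands Wnt5b, Wnt10b and Wnt11 were lower, and the receptors Fzd4 (92.7 against 32.5 CPM) and Fzd1 (58.8 against 29.1 CPM) higher. Of 15 BMP and TGF-beta genes, 5 were lower, among them Tgfb2 and the receptor Tgfbr2 (102 against 353 CPM), and 3 higher, Fst, Gdf10 and the activin receptor Acvr2a (61.1 against 11.2 CPM).

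Of 16 chemokine and cytokine genes, 6 were higher: Cxcl14, Cxcl12 (345 against 78.9 CPM), Cxcl9, Cxcl16, Ccl8 and Ccl11, the eosinophil attractant eotaxin (1341 against 583 CPM). Cxcl9 was uneven among members, at 4826 CPM in 9 cells that form a cluster described below and 38.9 CPM in the others. The alarmin Il33 was at 1.83 against 106.5 CPM and Il6 at 17.3 against 49.5 CPM, both lower. Of 12 hormone genes, Hsd11b1, which regenerates active glucocorticoid (258 against 45.2 CPM), Agt, angiotensinogen (38.4 against 3.17 CPM), Enpep, which cleaves angiotensin (124 against 25.6 CPM), and Ptger3, a prostaglandin E receptor (31.8 against 3.46 CPM), were higher, and Ace (153 against 514 CPM) and the estrogen sulfotransferase gene Sult1e1 (31.7 against 82.3 CPM) lower.

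The remaining lists are read against the 5.98% of all genes higher and 7.41% lower. Of 10 complement genes, 2 were higher (C2 and C4b) and 2 lower (C3 and Clu). Of 14 matrix protease and inhibitor genes, 4 were higher and 2 lower. For NF-kB response genes, 2 of 12 were higher and 1 lower. Interferon response genes had 1 of 14 higher (Isg15) and 1 lower (Irf7). Genes of the dissociation response, which enzyme digestion of tissue induces, had 1 of 17 higher (Dnajb1) and 1 lower (Nr4a1), and neither of 2 cell cycle genes compared passed. The interferon, dissociation and cell cycle counts were near these shares. Of 4 genes of the CD142 regulatory stroma compared, F3, which encodes CD142, Gdf10 and Cygb were higher, and 5 of the list's 9 were not compared. Of 13 mature adipocyte genes 3 were compared, of which Plin4 (36.7 against 2.88 CPM) and Car3 (158.5 against 19 CPM) were higher. Plin4, Car3 and F3 reached 20 CPM only in members, so nothing is read from these counts.

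Of 10 thermogenic genes only Cited1, a marker of beige fat cells (44.2 against 8.06 CPM), and Cox8b (125 against 5.76 CPM) were compared, and both reached 20 CPM only in members. Cox8b was seen in 15.1% of members at 2000 UMIs (12.8 to 17.7), 0.202% of progenitor-marker-high stroma and 0.333% of B-cell-like cells. Ucp1, the uncoupling protein of brown and beige fat, had 0 UMIs in members, as did Dio2 and Elovl3.

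**Figure D3:**
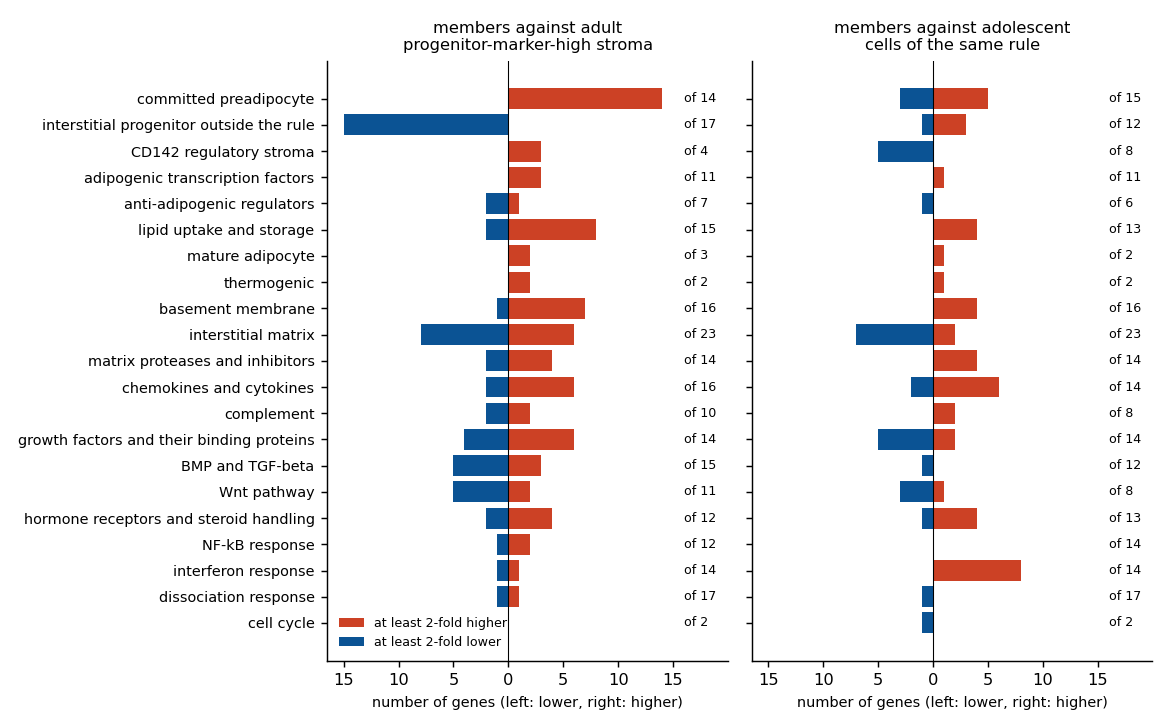
Number of genes of each list at least 2-fold higher (right of 0) or lower (left of 0) in members than in adult progenitor-marker-high stroma (left) and than in adolescent cells of the same rule (right), with the number compared at the right edge. The committed list is 14 of 14 higher in the left panel, and the interferon list is 8 of 14 higher in the right panel.

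The 10 genes highest over progenitor-marker-high stroma were Mlana, Fbln7, Tusc5, Cldn15, Cox8b, Gucy1a1, Olfm2, B3gnt8, Nnat and Grb14. Mlana, known from pigment cells, was at 28.9 against 0.864 CPM, a ratio of 33.5 (11.3 to 164) that rests on 3 UMIs in the high stroma. Fbln7, an adhesion protein of the fibulin family, was at 141 against 5.76 CPM, 24.4-fold (15.8 to 40.2). Tusc5, which acts in glucose transporter traffic of fat cells, was at 33.1 against 1.15 CPM. Cldn15, a claudin, was at 92.0 against 4.03 CPM. Gucy1a1, a subunit of the nitric oxide receptor guanylate cyclase, was at 46.7 against 2.02 CPM, 23.2-fold (11.1 to 58.1). Its partner subunit Gucy1b1 came eleventh at 26.8 against 1.44 CPM and was named after its value was seen. The pair are neighbours on chromosome 3, Gucy1b1 at 82032006 to 82074689 and Gucy1a1 at 82092427 to 82145789.

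The 10 lowest were Krtdap, Nov, Dmkn, Adamts16, Sema3e, Gpr1, Gap43, Crispld1, Dact2 and Akr1c18. Krtdap and Dmkn, both best known from skin epithelium, were at 0.916 against 157 CPM and 2.09 against 189 CPM. Sema3e, a guidance ligand, was at 0.393 against 40.9 CPM, and Dact2, a modulator of Wnt and TGF-beta signalling, at 1.96 against 116 CPM. Akr1c18, which inactivates progesterone, was at 6.15 against 343.5 CPM, 55.8-fold lower (41.7 to 76.4).

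The adolescent library was asked whether the same rule divides its stroma in the same way. Among adolescent stromal cells, 6.15% of 5479 genes were at least 2-fold higher and 5.42% at least 2-fold lower in the cells of the rule than in progenitor-marker-high stroma. Of the 266 genes higher in the adult contrast and compared in both, 194 (72.9%) were also 2-fold higher in the adolescent one, where 5.56% of all 5164 shared genes were. Of 354 lower genes, 225 (63.6%) were also lower, against 5.27%. Both contrasts were made by the same 11 genes, in libraries with 22 barcodes in common, and both carry the free RNA of their own sample. All 15 committed genes were 2-fold higher in the adolescent contrast, Dlk1 included, and 15 of 17 progenitor genes were lower.

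**Figure D4:**
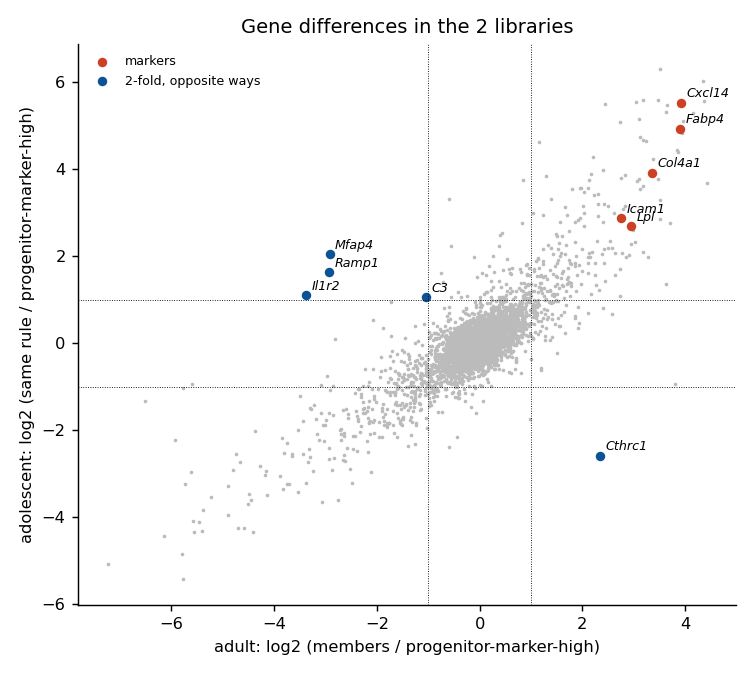
Each point is 1 of 5164 genes, with its log2 ratio of low over high progenitor stroma in the adult (x axis) and adolescent (y axis) library, dotted lines marking 2-fold. The 5 markers lie at the upper right, and Cthrc1, C3, Mfap4, Ramp1 and Il1r2 lie in opposite corners.

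Members were then set against the 531 adolescent cells of the same rule. Of 5498 genes, 224 (4.07%) were at least 2-fold higher in the adult members and 164 (2.98%) at least 2-fold lower. Without the minimum of 20 CPM the balance turned, with 1192 genes higher and 2457 lower. Some genes of immune cells moved with the library. All 4 antigen presentation genes were higher in adult members, at a summed 2067 against 378 CPM, and all 4 mast cell and both neutrophil genes compared were lower, at 49.5 against 475 CPM and 23.4 against 131 CPM. Of 6 pan-immune genes 1 was higher, as were 1 of 4 macrophage genes and the 1 natural killer cell gene compared, while the 1 B cell gene compared lay between. The part of free RNA in the differences below was not tested.

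The markers did not move together with age. Cxcl14 was at 718 CPM (699 to 737) in members and 45.5 CPM (39.6 to 51.9) in adolescent cells, 15.8-fold (13.8 to 18.2). It was seen in 46.0% and 5.90% of cells at 2000 UMIs. Fabp4 was 2.99-fold (2.90 to 3.08) and Col4a1 2.34-fold (2.26 to 2.42) higher in the adult members, at 1095 and 813 CPM in adolescent cells. Lpl differed by 1.48-fold (1.44 to 1.51) and stood at 2113 CPM in adolescent cells. Icam1 went the other way, at 336 CPM (323 to 349) in adult members and 409 CPM (391 to 427) in adolescent cells, 1.22-fold lower (1.15 to 1.29), although it was seen in 43.6% of adult and 38.3% of adolescent cells at 2000 UMIs.

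Of the 15 committed genes, 5 were at least 2-fold higher in adult members (Cxcl14, Sparcl1, Fabp4, Cd36 and Col4a1), 3 were lower (Dlk1, Apoe and Cxcl12) and 7 lay between, with a median log2 ratio of 0.52 beside 0.07 over all genes. Pparg was at 65.2 and 47.9 CPM, and Cebpa at 58.4 and 63.3 CPM. Dlk1, an inhibitor of adipogenesis found in young preadipocytes, was at 4.58 against 1080 CPM, and was seen in 0.476% of members at 2000 UMIs (0.130 to 1.21).

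The 10 genes lowest in adult against adolescent cells included Igf2, H19 and Dlk1. Igf2, a fetal growth factor, was at 0.131 against 105 CPM, resting on 1 UMI in members, and H19, the noncoding RNA next to it on chromosome 7, at 19.1 against 1478 CPM, 77.3-fold lower (65.6 to 91.7). Dlk1 was 236-fold lower (169 to 339). Mfap4, a microfibril protein, was at 5.50 against 489 CPM, and Ptn, the growth factor pleiotrophin, at 6.15 against 428 CPM. Agtr2, an angiotensin receptor, was at 0.524 against 45.7 CPM. The others were Ifitm1, Nrk, Nov and Thbs4.

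The 10 highest in adult members were led by Sult1e1, which inactivates estrogen, at 31.7 CPM, with 0 UMIs in the adolescent cells. Set against 3 UMIs over those cells, it was at least 50.9-fold higher. Wisp2, a Wnt-induced matricellular protein, was at 61.8 against 3.11 CPM, Pla1a, a phospholipase, at 75.1 against 4.15 CPM, and Cxcl13, a chemokine for B cells, at 128 against 7.26 CPM, 17.6-fold (12.6 to 25.4). C3, the central complement protein, was at 937 against 98.0 CPM, 9.56-fold (8.71 to 10.5), and Hsd11b1 at 258 against 26.8 CPM. Cxcl14, Cd300lg, Col4a3 and Fbln7 completed the group, with Fbln7 at 141 against 13.1 CPM.

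Interferon response genes were 2-fold higher in adult members in 8 of 14 cases and lower in none, with a median log2 ratio of 1.10. B2m, the light chain of class I molecules, was at 4835 against 1762 CPM, H2-D1 at 2725 against 980 CPM and Isg15 at 239 against 76.6 CPM. In the adult immune cells B2m was at 4730 CPM and H2-D1 at 2980 CPM. The interstitial matrix had 2 of 23 genes higher and 7 lower in adult members, the lower ones led by Mfap4, Col14a1 (46.7 against 381.5 CPM), Postn (282 against 2037 CPM) and Fn1 (232 against 934 CPM). The CD142 list had 5 of 8 lower and none higher, among them Mgp, matrix Gla protein, at 29.1 against 369 CPM and Fmo2 at 5.89 against 63.9 CPM, while F3 was at 114 against 96.3 CPM. In the basement membrane 4 of 16 were higher (Col4a1, Col4a3, Col4a4 and Col18a1) and none lower. None of 14 NF-kB genes passed, beside 4.07% and 2.98% of all genes, and nothing is read from that count.

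Members were next divided by Icam1 at equal depth. After thinning to 2000 UMIs, 367 of 841 members (43.6%, 40.3 to 47.1) held an Icam1 UMI: 247 held 1, 88 held 2 and 32 held 3 or more, with a maximum of 6. The share was 79.8% without thinning, or 684 of the 857 members. Many of the 474 cells called Icam1-negative thus held Icam1 UMIs that the thinning did not draw. The division is therefore in part a random draw and does not separate cells with Icam1 from cells lacking it. At 2000 UMIs it was 6.07% in progenitor-marker-high stroma, 14% in B-cell-like and 19.2% in T-cell-like cells. Since B and T cells carry Icam1 themselves, these are no clean background, and the high stroma lay below both. The variance of Icam1 counts over members was 1.25 times their mean, where the median gene had 1.04 and the gene at the 95th percentile 1.69.

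Cells with and without an Icam1 UMI had similar depth before thinning (medians 9179 and 9225 UMIs) and similar gene numbers (985 and 989). Some immune markers moved with the division. Icam1-positive cells held 0.794 times the pan-immune level (0.661 to 0.951) of the Icam1-negative cells, 0.80 times the macrophage level (0.696 to 0.919) and 0.861 times the antigen presentation level (0.803 to 0.924), and the part of this RNA in the division was not tested. The intervals of the other 5 immune lists spanned 1, with ratios of 0.975 for B cells, 0.845 for T cells, 1.49 for natural killer cells, 1.24 for mast cells and 1.55 for neutrophils. The summed dissociation response was 1.106 times as high (1.084 to 1.128) in Icam1-positive cells. Complement genes were at 1.155 times (1.103 to 1.209) and basement membrane genes at 0.926 times (0.906 to 0.946). Some other gene lists also had intervals without 1, and the cause was not tested. Of 2179 genes with at least 100 UMIs, 37 (1.7%) had a log2 ratio of at least 0.5 and 36 (1.65%) of -0.5 or lower. These genes depended on the random draw. A second thinning gave 36 and 38 genes, of which 5 and 2 were shared with the first set, 13.5% and 5.56% of its lists. With all UMIs of the same cells, only 6 genes were higher and 6 lower.

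The other markers were set against the division by Icam1. The log2 ratio of cells with over cells without an Icam1 UMI was -0.05 for Col4a1, 0.05 for Lpl, -0.19 for Fabp4 and 0.23 for Cxcl14. None of the 13 committed genes compared passed 0.5 in either direction, and neither did any of 9 progenitor genes outside the rule. At 1.7% and 1.65% of all genes past 0.5, counts of 0 in lists of this size are near the background and nothing is read from them.

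The 10 highest genes were Cxcl9, Ccl5, Ier3, Ndufaf8, Eid1, Wdr26, Tnfrsf1a, M6pr, Sdhd and Psmb9. Cxcl9, an interferon-induced chemokine, was at 98.1 against 44.3 CPM, but 43.0% of its UMIs came from 1 cell, and without that cell its log2 ratio went from 1.13 to -0.47. Ccl5, a chemokine of lymphocytes, was at 151 against 81.2 CPM (log2 ratio 0.89, 0.46 to 1.33), with 0.67 in the second thinning and 0.60 with all UMIs. Ier3, an immediate early gene, had 0.77, 0.57 and 0.33. Isg15, eleventh in the order, had 0.62, 0.23 and 0.56, and was named after its value was seen.

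The 10 lowest were Apod, Ccl2, Timp1, Fgl2, Nfat5, Polr2i, Clec2d, Maged2, Tubb6 and Derl1. Apod, the lipid carrier apolipoprotein D, was at 199 against 517 CPM (log2 ratio -1.37, -1.65 to -1.11), with -1.40 in the second thinning, -0.81 with all UMIs and -1.03 without the 1 cell that held 16.2% of its UMIs, the largest share of any cell. Ccl2, a monocyte attractant, turned from -1.16 to 1.24 in the second thinning and Timp1, a protease inhibitor, from -1.05 to 0.70, and 34.1% and 31.5% of their UMIs came from 1 cell each. With all UMIs they were at -1.46 and -1.33, and without that cell at -0.28 and -0.25. Fgl2 went from -0.86 to -0.75 in the second thinning. It fell short of -0.5 with all UMIs (-0.38) and without the cell that held the most of its UMIs (-0.43).

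Apod and Ccl2 also headed the genes that varied most among members relative to their mean, with variance to mean ratios of 41.4 and 27.5. Cxcl9 followed at 24.7, then Malat1, a nuclear noncoding RNA, at 18.7 and Gsn, the actin-severing protein gelsolin, at 15.96. Cxcl9 was seen in 12 cells with and 18 without an Icam1 UMI, and Gsn in all 367 and 474. The intervals given for the Icam1 division, that of Apod included, do not cover such spread among cells. Both thinnings and the values with all UMIs came from the same cells and are no replication.

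Clustering divided the members into 9 groups of 205, 171, 165, 139, 80, 56, 19, 13 and 9 cells. The number was 3 at a resolution of 0.5, 10 with 15 neighbours and 9 with the Leiden method, and the adjusted Rand index with the 9 groups, which is 1 for the same division, was 0.222, 0.424 and 0.631. Membership thus changed with the settings, also where the number was the same, and the groups are a description of 1 setting. Of the 5 markers, Fabp4 had the widest range over clusters 1 to 6. It stood at 6094 CPM in cluster 1, led by Nnat, H2-Q10, Cited1 and Cox8b, and at 656 CPM in cluster 2, led by Gm36266, Mgp, Opcml, Sult1e1 and Fn1. Lpl stood at 4026 and 2146 CPM and Cxcl14 at 1271 and 412 CPM in these clusters. Icam1 did not follow, at 296 and 344.5 CPM. The committed preadipocyte list summed to 19683 CPM in cluster 1 and to 8696 CPM in cluster 2, the lowest of the 9 groups. Interstitial progenitor genes outside the rule summed to 6204 and 10201 CPM. In cluster 2 alone the progenitor sum was above the committed sum, so the label is weakest for its 171 cells.

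Cluster 3, led by Mysm1, Ifit3b, Prdm2 and Ifit3, held Fabp4 at 3241 CPM, close to the 3278 CPM of all members, the highest Col4a1 of clusters 1 to 6 (2508 CPM) and the lowest Pparg of them (43.6 CPM). Cluster 4 was led by Ccl2 (573 against 72.6 CPM in the other members), Timp1, H19 and Ccl7. Cluster 5 was led by Car3 at 1027 against 67.1 CPM, with Wdcp, C4b and Fabp5, and held 4211 CPM of Lpl. The mature adipocyte list summed to 1145 CPM there, most of it Car3. Cluster 6 was led by Apod (1630 against 163 CPM), Sult1e1, Dkk2 and Cyp26b1 and combined low Fabp4 (474 CPM) with the highest Cxcl14 of the clusters (1404 CPM).

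The small clusters stood apart in quality. Cluster 7, of 19 cells, held all 9 called doublets and 1988 CPM of pan-immune markers and was led by Krt17, Stmn1 and Clec10a. Cluster 8, of 13 cells, had a median of 1887 UMIs and 9.82% mitochondrial UMIs and was led by Lars2. Cluster 9, of 9 cells, was led by Cxcl9 (4826 against 38.9 CPM), Irf7 and Ccl8, with a median of 3559 UMIs. Its lowest gene was Malat1, the nuclear RNA, at 313 against 37124 CPM in the other members. The dissociation response list summed to 1943 CPM in it, beside 23898 CPM over all members.

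**Figure D5:**
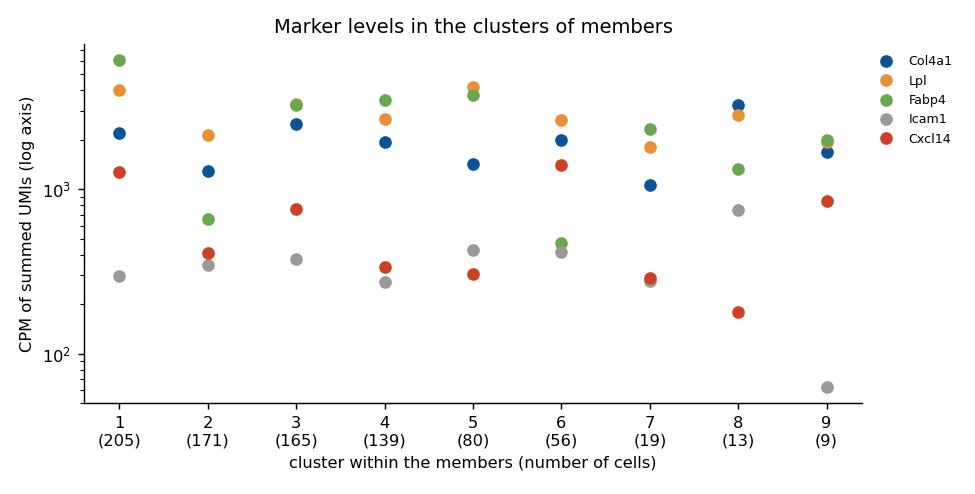
Levels of the 5 markers (CPM of summed UMIs, log axis) in the 9 clusters of members, with the number of cells in parentheses. Fabp4 ranges from 474 CPM in cluster 6 to 6094 CPM in cluster 1, and Icam1 from 62.7 CPM in the 9 cells of cluster 9 to 750.5 CPM in the 13 cells of cluster 8.

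The share of cells with an Icam1 UMI at 2000 UMIs was 40.0% (33.2 to 47.1), 42.6%, 47.5%, 38.4%, 56.2% (44.7 to 67.3) and 51.8% (38.0 to 65.3) in clusters 1 to 6. The lowest of these intervals, in cluster 4 (30.3 to 47.1), overlapped that of cluster 5. Apod was lower in Icam1-positive cells, yet cluster 6, led by Apod, had a share of 51.8%, beside 43.6% of all members.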

How the data were processed

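The authors deposited raw counts of UMIs per gene and cell for both libraries, made with Cell Ranger on GRCm38, without normalization. The counts cover 31125 gene identifiers. Cells were used as deposited, and Scrublet doublets were removed only in an alternative. Sets of cells were defined by the rule in the text, immune cells by at least 2 UMIs of pan-immune markers and a collagen and Dcn share below 1%. B-cell-like cells were immune cells with at least 2 UMIs of Cd79a, Cd79b and Ms4a1 and none of Cd3d, Cd3e and Cd3g, and T-cell-like cells the reverse. UMIs were summed per set and scaled to counts per 1000000 (CPM). Log2 ratios used a pseudocount of 1 UMI, for genes with at least 20 CPM in either set, and 3 UMIs stood in for a count of 0. Levels were given with Poisson, ratios with conditional binomial and shares with Clopper-Pearson intervals, at 95%. Cells were thinned at random to 2000 UMIs for shares and for the division by Icam1. Clusters came from log-scaled counts, 50 components, 50 neighbours and Louvain at resolution 1. Python 3.11.15, scanpy 1.11.5, igraph 0.11.9, leidenalg 0.10.2, matplotlib 3.10.9, pandas 2.3.3, scipy 1.17.1 and numpy 2.4.6 were used. The code for the 2-fold calls was run on simulated Poisson counts. These held no spread among cells, and the Icam1 division was not simulated, so the run says nothing on either. No test between ages or cell sets was run, as each age is 1 library. The members, 21 gene lists and 15 marker lists were chosen with earlier results of these data known. Named genes were the 5 markers, the 11 rule genes, the 15 highest over immune cells, the 10 highest and lowest of the other contrasts, the 5 most variable, list members and genes leading clusters. Alternatives changed the rule, filter, pseudocount, weighting, thinning and clustering.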

Additional observations from a re-analysis of the deposited data

Results flagged for a closer look

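Genes at least 2-fold apart in opposite directions in the adult and adolescent contrasts of low over high progenitor stroma were singled out. There were 5, and the difference between the ages was not tested, since each age is 1 library. Cthrc1, a secreted collagen regulator, had a log2 ratio of 2.34 in the adult and -2.58 in the adolescent library, at 20.3 CPM in adult members against 3.74 CPM (13 UMIs) in adult progenitor-marker-high stroma, and at 92.2 against 553 CPM in the adolescent library. Its adult ratio entered the comparison only through the level in members, just past the minimum of 20 CPM. The adult ratio of Mfap4, both ratios of Ramp1 and the adolescent ratio of Il1r2 likewise entered only through the higher side. C3 had -1.05 and 1.06, with 937 CPM in adult members and 1935 CPM in adult progenitor-marker-high stroma. Mfap4 had -2.92 and 2.05, Ramp1, a coreceptor for the neuropeptide CGRP, -2.93 and 1.64, and Il1r2, the decoy receptor for interleukin-1, -3.38 and 1.11.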

How the results depend on the processing

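No paired analysis was possible because each age is 1 library. Over all settings, 57 values of counts and shares stayed within 1.5 times of the count or within the interval of the share and 18 moved, and of the values of single genes 129 stayed within their interval, 45 moved and 1 reversed. The cause was not tested except where fewer genes or cells were compared. A filter at 50 CPM gave 1534 genes past 2-fold over immune cells, 422 over progenitor-marker-high stroma and 229 over adolescent cells, and no filter gave 8973, 3837 and 3649, beside 2736, 761 and 388. Without a filter 32.7% of the genes past 2-fold against adolescent cells were higher, beside 57.7%. The Icam1 division gave 73 genes, 124 at 4000 UMIs (44 higher, 80 lower), 30 in the 375 members without an endothelial or mural UMI (11 higher, 19 lower) and 12 with all UMIs. The Icam1 share was 28.7% at 1000 and 64.0% at 4000 UMIs. Adult calls met again in the adolescent library were 78.4% (higher) and 70.3% (lower) with a progenitor limit of 0.05%, 54.7% (lower) with 0.2%, 62.1% and 58.0% without cells holding an endothelial or mural UMI, and 54.7% (lower) at 4-fold. Clusters numbered 3 at resolution 0.5. Over progenitor-marker-high stroma, the log2 ratio of Cxcl14 was 3.93, 3.005 with a progenitor limit of 0.05%, 4.55 with 0.2% and 4.54 with cells weighted equally, and that of Icam1 was 2.75, 1.90 with 0.05% and 3.35 without cells holding an endothelial or mural UMI. Cxcl9 in the Icam1 division reversed to -0.47 without 1 cell, an alternative chosen after seeing the data, as were those for the calls met again. With doublets removed, 848 members remained and no count or share moved by these limits, though the Icam1 division went from 37 genes higher and 36 lower to 25 and 42.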
